A study of Chlorocebus sabaeus with 10 samples.

Results

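The autophagy and lysosome regulator genes are a list of 38 genes, named for their role in the pathway with earlier results of these data known, whose transcripts were followed in the livers of vervet monkeys fed a high fructose or a control diet. Of the 38 genes, 35 had an entry in the table of 28078 transcripts, with 1 transcript each. ATG9A, MAP1LC3B and LAMP1 had no entry under these symbols and were not analysed here. The filter on low counts left 28 of the 35 among 7948 tested transcripts, and the other 7, ULK2, ATG14, ATG4A, ATG5, ATG7, ATG10 and MAP1LC3A, are given as raw estimated counts.

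Autophagy encloses cytoplasm, damaged organelles, glycogen and lipid droplets in a double membrane, the autophagosome, and delivers them to the lysosome for breakdown. The ULK1 kinase complex starts the process, a lipid kinase complex built around PIK3C3 and BECN1 marks the membrane, ATG2 proteins supply it with lipid, and a conjugation machinery attaches ATG8 proteins to it, which cargo receptors then bind. TFEB, TFE3 and MITF are related transcription factors that switch on lysosomal and autophagy genes, and much of autophagy is controlled at the level of proteins rather than transcripts. In liver, autophagy recycles amino acids and lipids between meals and clears damaged mitochondria.

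The samples were liver biopsies of 10 female vervet monkeys (Chlorocebus sabaeus), 5 fed the high fructose (HFr) diet and 5 fed chow, each sequenced once as a poly(A)-selected RNA library. All animals ate chow before the study, and the diets lasted 6 weeks. According to the study, animals were assigned so that age and body weight were balanced between the diets. Its clinical measures list a higher mean age on HFr than on chow, a difference not significant there. No age is given in the labels. The question was whether HFr feeding changed the liver transcriptome, here the part of it that builds autophagosomes and controls lysosomes. Because a biopsy is a mixture of cells, fewer cells of a type and less RNA per cell cannot be told apart.

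Total estimated counts lay between 2977282 and 4992505 per animal. Mitochondrial transcripts took 34.7% to 73.6% of them, which left 864571 to 2657103 counts on nuclear transcripts, a 3.07-fold range. The mitochondrial share averaged 55.5% ± 11.8 on HFr and 55.4% ± 16.5 on chow (SD, n = 5 each, two-sided exact permutation test, p = 0.992). All 8 hepatocyte markers examined passed the filter, and their summed level was 42640 to 67180 normalized counts on HFr and 36440 to 71510 on chow, so the tissue carried the signature its label gives. Of the markers of stellate cells and fibroblasts, 6 of 7 tested were lower on HFr and COL1A1 was higher, with a median log2 fold change of -0.43, and of those of endothelial cells 6 of 9 were higher and 3 lower, with a median of 0.15. In each of these lists 1 marker, ACTA2 (-1.57, SE 0.49) and KDR (0.57, SE 0.19), had an unadjusted p under 0.05, and none passed adjustment. A normalized count is an estimated count divided by the animal's TMM-scaled library size (CPM), so it compares animals for 1 gene, and levels of different genes are not compared because transcript lengths were not used here.

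None of the 28 tested members passed the test for a difference between the diets. No member had an unadjusted p under 0.05 in edgeR's quasi-likelihood test, against 4.29% of all tested transcripts, and none had an adjusted p under 0.05, as was the case for 0% of all transcripts. The smallest unadjusted p was 0.107, for ATG2A, and the adjusted p of each member was 0.9996. The diets overlapped for all 28 members, whereas they did not overlap for 0.541% of all transcripts. Of the members, 12 were higher and 16 lower on HFr, which is 42.9% higher against 49.8% of all tested transcripts. The median log2 fold change (HFr minus chow) was -0.02 over the members and -0.00069 over all transcripts, and the members ranged from -0.38 for SQSTM1 to 0.36 for ATG4D.

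The measurements limit how large a missed difference could have been. The 95% interval of the log2 fold change lay within 1 log2 unit either way for 25 of the 28 members, and within a 1.5-fold change for 13. The intervals of MITF, LAMP2 and ATG4D reached past 1 log2 unit. Between animals of the same diet, the median coefficient of variation of the members was 21.7%, against 27.1% over all tested transcripts. ATG2B and WIPI2 were the steadiest members at 11.7% each, and LAMP2 was the most variable at 57.6%. A p above the threshold does not show that the levels were equal.

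**Figure D1:**
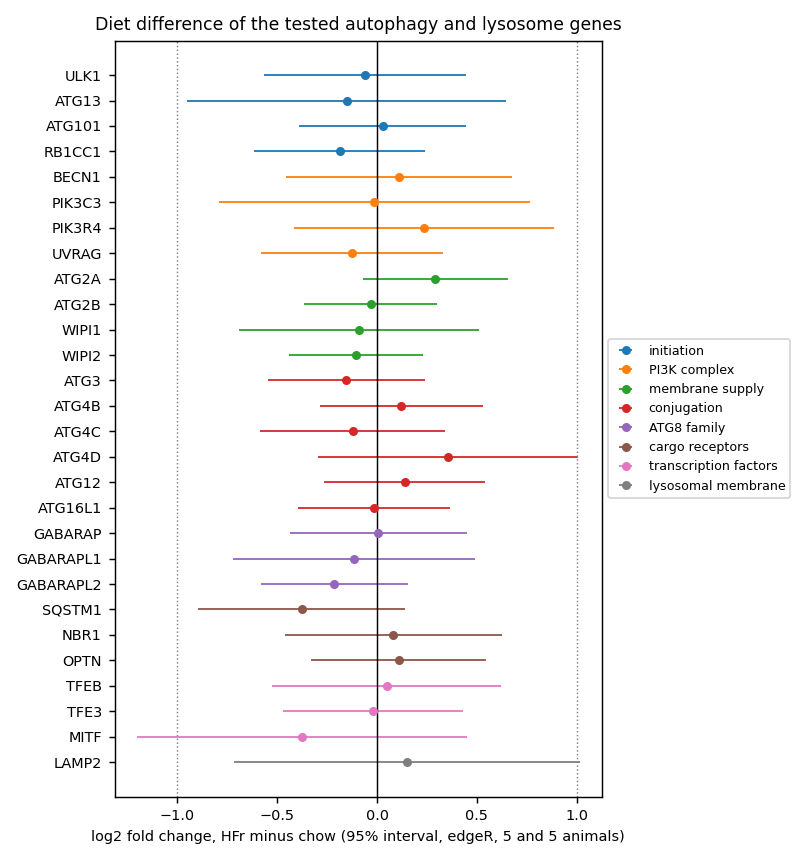
Log2 fold change, HFr minus chow, of the 28 tested members (x axis) with its 95% interval from edgeR, ordered and coloured by role; dotted lines mark 1 log2 unit, a 2-fold change, in either direction. Every interval crosses 0, and those of MITF, ATG4D and LAMP2 reach past a dotted line.

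The initiation complex consists of ULK1 or its relative ULK2, the adaptors ATG13 and ATG101, and the scaffold RB1CC1 (FIP200). ULK1, the kinase that starts autophagosome formation (ChlSab1.1 chromosome 11, 127276210 to 127304497), measured 119, 79.3, 56.9, 119 and 104 normalized counts in HFr animals 1 to 5. In chow animals 1 to 5 it measured 146, 99.9, 76.5, 89.4 and 86.3. The lowest value was in HFr 3 and the highest in chow 1, and the other animals interleaved, with a log2 fold change of -0.06 (SE 0.24, 95% interval -0.57 to 0.45). The 3 other tested members of the complex had log2 fold changes of -0.15 (SE 0.37) for ATG13, 0.03 (SE 0.20) for ATG101 and -0.19 (SE 0.20) for RB1CC1. ULK2 did not pass the filter. Its estimated counts were 1, 8, 3, 3 and 9 in HFr animals 1 to 5 and 1, 2, 5, 0 and 2 in chow animals 1 to 5, 24 against 10 reads in all. HFr 2 and HFr 5 held most of the HFr reads, and without a filter on low counts edgeR gave a log2 fold change of 1.15 (SE 0.66, adjusted p = 0.838).

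The lipid kinase complex makes the phosphatidylinositol 3-phosphate that recruits later factors. Its catalytic subunit PIK3C3 (VPS34) had a log2 fold change of -0.01 (SE 0.36), its regulatory subunit PIK3R4 0.24 (SE 0.30), BECN1, the scaffold that autophagy signals act on, 0.11 (SE 0.26), and UVRAG, which directs the complex towards endosomes, -0.12 (SE 0.21). PIK3C3 measured 1.83 to 5.83 normalized counts on chow and 1.99 to 4.87 on HFr, with chow 3 alone above 2.51 among the chow animals. ATG14, the subunit that brings the complex to the forming autophagosome, was counted 8 times on HFr and 11 times on chow, with 0 to 4 reads per animal, so no difference was detectable at this depth.

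ATG2A and ATG2B bridge the endoplasmic reticulum and the growing membrane and transfer lipids, and WIPI1 and WIPI2 bind the phosphatidylinositol 3-phosphate on it. ATG2A (chromosome 1, 9316675 to 9339265) measured 34.4, 32.8, 40.1, 43.5 and 30.5 normalized counts in HFr animals 1 to 5. In chow animals 1 to 5 it measured 28.8, 33.9, 23.5, 34.6 and 27.4. HFr 4 and HFr 3 were above every chow animal, and the other 3 HFr animals exceeded the mean of the chow diet (5 of 5 in all) but fell within its range. The means were 36.2 ± 5.38 on HFr and 29.7 ± 4.66 on chow (mean ± SD, n = 5 each), and the log2 fold change was 0.29 (SE 0.17, 95% interval -0.07 to 0.65). The unadjusted p of ATG2A was 0.107 in edgeR and 0.0482 in the equal-variance test that the study used, where the adjusted p was 0.994. Its paralog ATG2B had a log2 fold change of -0.03 (SE 0.16). WIPI1 and WIPI2 were -0.09 (SE 0.28) and -0.11 (SE 0.16), and the difference between ATG2A and the other 3 was not tested.

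The conjugation machinery works like ubiquitin transfer. ATG7 is the activating enzyme, ATG3 and ATG10 are conjugating enzymes, ATG12, ATG5 and ATG16L1 form the ligase, and the 4 ATG4 proteases prepare ATG8 proteins and release them again. ATG3 (chromosome 22, 68228203 to 68257503) measured 40.1, 36.5, 37.3, 23.8 and 33.2 normalized counts in HFr animals 1 to 5 and 31.3, 31.3, 43.0, 39.7 and 44.7 in chow animals 1 to 5. HFr 4 was the lowest animal, chow 5 and chow 3 were the highest, and 4 of 5 HFr animals were below the chow mean. The log2 fold change of ATG3 was -0.15 (SE 0.18, 95% interval -0.55 to 0.24), with an unadjusted p of 0.418 in edgeR.

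ATG7 (chromosome 22, 47325614 to 47571070) had too few reads to pass the filter. Its estimated counts were 0, 10, 1, 4 and 9 in HFr animals 1 to 5 and 12, 9, 15, 4 and 3 in chow animals 1 to 5. The sums were 24 and 43 reads, and the HFr animals split into 2 with 9 or 10 reads and 3 with 0 to 4. HFr 1, 3 and 4 and chow 4 and 5, with 4 or fewer reads, were the 5 animals with a mitochondrial share above 60%. In normalized counts these 5 animals measured 0, 0.40, 0.88, 2.01 and 1.37, and the other 5 measured 1.77 to 2.73. Chow 1, at a share of 57.1%, had 12 reads. The part of the mitochondrial share or of depth in the counts was not tested. Scaled to library size, ATG7 measured 0 to 2.23 normalized counts on HFr and 1.37 to 2.73 on chow, and without a filter on low counts edgeR gave a log2 fold change of -0.91 (SE 0.55, adjusted p = 0.838).

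ATG4D had the highest log2 fold change of the tested members. It measured 6.36, 10.5, 8.42, 7.06 and 3.73 normalized counts in HFr animals 1 to 5 and 5.45, 4.79, 4.55, 9.04 and 5.02 in chow animals 1 to 5. Of the HFr animals, 4 were above the chow mean, while HFr 5 was the lowest of all 10 and chow 4 was the second highest. The log2 fold change was 0.36 (SE 0.30, 95% interval -0.29 to 1.005), with an unadjusted p of 0.261 in edgeR. The other tested members of this group were 0.12 (SE 0.19) for ATG4B, -0.12 (SE 0.22) for ATG4C, 0.14 (SE 0.19) for ATG12 and -0.02 (SE 0.18) for ATG16L1. The signs of the proteases differed, with ATG4B and ATG4D above 0 and ATG4C below. ATG4A was counted 12 times on HFr and 7 times on chow, ATG5 26 and 20 times, and ATG10 10 and 11 times, with at most 8 reads in any animal.

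**Figure D2:**
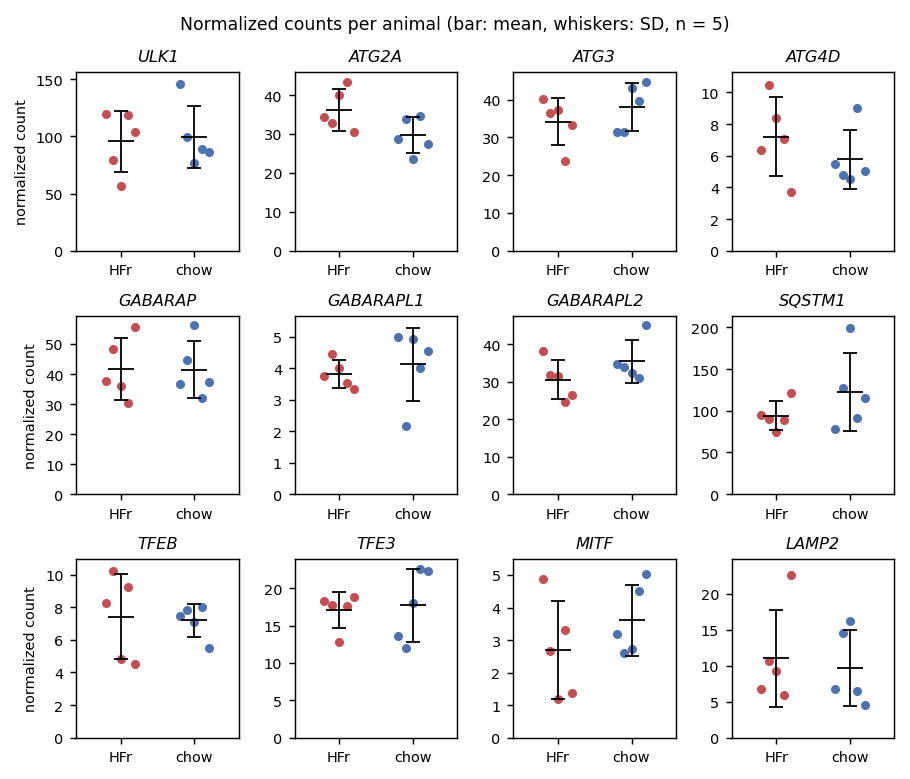
Normalized counts (y axis, from 0, a separate scale for each gene) of 12 members in each of the 5 HFr and 5 chow animals; points are animals 1 to 5 from left to right, the long bar is the mean and the whiskers are the SD. The diets overlap in every panel. For SQSTM1 (chow 3), LAMP2 (HFr 5), ATG4D (chow 4) and GABARAPL2 (chow 5), 1 animal lies well above the others of its diet.

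ATG8 proteins are the small ubiquitin-like tags that sit on the autophagosome membrane, and they fall into the LC3 and the GABARAP branches. GABARAP (chromosome 16, 6614688 to 6616443) measured 37.8, 48.4, 36.1, 30.5 and 55.8 normalized counts in HFr animals 1 to 5 and 36.5, 44.6, 56.3, 32.1 and 37.4 in chow animals 1 to 5. Its means were nearly the same, 41.7 ± 10.2 on HFr and 41.4 ± 9.45 on chow (mean ± SD, n = 5 each), with a log2 fold change of 0.0060 (SE 0.21, 95% interval -0.44 to 0.45), and both diets held animals above 55 and animals near 30 to 38. GABARAPL1 (chromosome 11, 10087604 to 10096612) measured 3.74, 4.46, 4.01, 3.53 and 3.34 in HFr animals 1 to 5 and 4.99, 2.18, 4.92, 4.02 and 4.56 in chow animals 1 to 5. The HFr animals lay close together, inside a chow range that was widened downwards by chow 2, and the log2 fold change was -0.11 (SE 0.28, 95% interval -0.72 to 0.49). GABARAPL2 (chromosome 5, 61053262 to 61066083) measured 38.2, 31.9, 31.7, 24.7 and 26.5 in HFr animals 1 to 5 and 34.7, 33.9, 32.2, 31.1 and 45.2 in chow animals 1 to 5. HFr 4 and HFr 5 were below every chow animal, chow 5 was above every other animal, and the log2 fold change was -0.21 (SE 0.17, 95% interval -0.58 to 0.15) with an unadjusted p of 0.233 in edgeR. MAP1LC3A, of the LC3 branch, was counted 8, 4, 7, 14 and 12 times in HFr animals 1 to 5 and 11, 4, 13, 2 and 3 times in chow animals 1 to 5. The diets overlapped from 4 to 13 reads, and the log2 fold change without a filter was 0.49 (SE 0.47, adjusted p = 0.886).

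**Figure D3:**
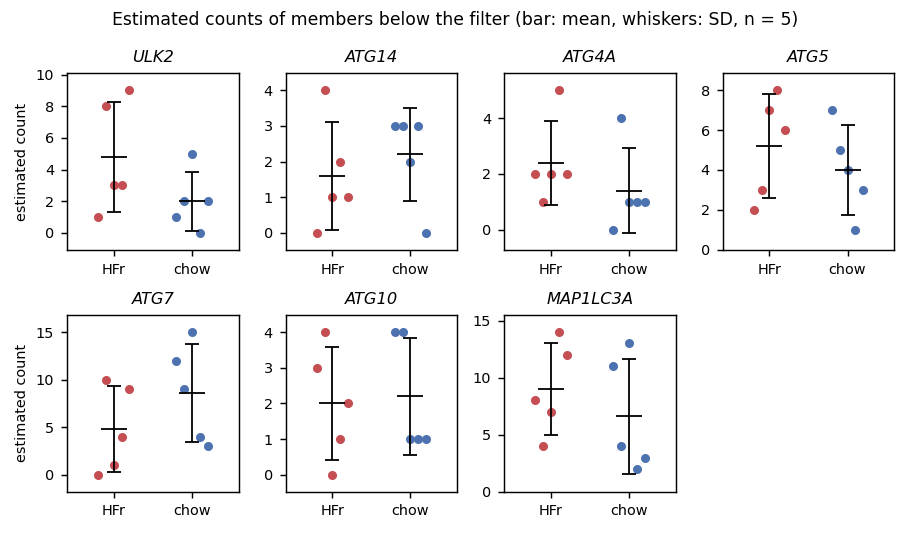
Estimated counts (y axis, a separate scale for each gene) of the 7 members below the filter on low counts in the 5 HFr and 5 chow animals; the long bar is the mean and the whiskers are the SD, which can reach below 0. No gene exceeds 15 reads in an animal, and the diets overlap for each.

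Cargo receptors tie what is to be degraded to ATG8 proteins. SQSTM1 (p62), the best known of them and itself degraded by autophagy (chromosome 23, 81558082 to 81574830), measured 95.5, 90.01, 74.5, 89.2 and 122 normalized counts in HFr animals 1 to 5. In chow animals 1 to 5 it measured 78.1, 128, 199, 91.9 and 115. Each of the 5 HFr animals fell short of the mean of the chow diet, but that mean was raised by chow 3, and chow 1, chow 4 and chow 5 lay inside the HFr range. The means were 94.2 ± 17.3 on HFr and 122 ± 47.0 on chow (mean ± SD, n = 5 each). SQSTM1 had the lowest log2 fold change of the tested members, -0.38 (SE 0.24, 95% interval -0.90 to 0.14), with an unadjusted p of 0.141 in edgeR. Without chow 3 the log2 fold change was -0.13. NBR1, a relative of SQSTM1, and OPTN, a receptor for bacteria and damaged mitochondria, had log2 fold changes of 0.08 (SE 0.25) and 0.11 (SE 0.20).

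The transcription factors were measured at the transcript level only, which does not report on their activity, since TFEB and TFE3 are controlled largely by moving between cytoplasm and nucleus. TFEB (chromosome 17, 30426260 to 30479124) measured 8.24, 10.3, 4.81, 9.27 and 4.52 normalized counts in HFr animals 1 to 5 and 7.49, 7.83, 7.10, 8.03 and 5.48 in chow animals 1 to 5. Of the HFr animals, 3 were above every chow animal and 2 were below every chow animal, and the log2 fold change was 0.05 (SE 0.27, 95% interval -0.53 to 0.62). The SD was 2.61 on HFr and 1.02 on chow, and this difference in spread was not tested. TFE3 (chromosome X, 46140543 to 46155372) measured 18.3, 17.8, 12.8, 17.7 and 18.9 in HFr animals 1 to 5 and 13.6, 11.96, 18.0, 22.6 and 22.4 in chow animals 1 to 5. Its log2 fold change was -0.02 (SE 0.21, 95% interval -0.47 to 0.43), and 4 of the 5 HFr animals lay between 17.7 and 18.9.

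MITF, better known from pigment cells and mast cells (chromosome 22, 30748440 to 30972168), was the least well measured of the 3 factors, with 3 to 15 estimated counts per animal. It measured 4.87, 2.67, 1.20, 3.31 and 1.38 normalized counts in HFr animals 1 to 5 and 3.18, 2.61, 2.73, 4.52 and 5.02 in chow animals 1 to 5. HFr 3 and HFr 5 were below every chow animal, HFr 1 was the second highest of all 10, and 4 of 5 HFr animals were below the chow mean. The log2 fold change was -0.38 (SE 0.39, 95% interval -1.20 to 0.45), with an unadjusted p of 0.347 in edgeR, so a change of more than 2-fold downwards lies inside the interval.

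LAMP2, a heavily glycosylated protein of the lysosomal membrane that is needed for fusion with autophagosomes and for chaperone-mediated autophagy, lies on an unplaced scaffold of the build. It measured 6.74, 10.7, 9.22, 5.96 and 22.6 normalized counts in HFr animals 1 to 5. In chow animals 1 to 5 it measured 6.81, 14.6, 16.2, 6.53 and 4.56. Values spread from 4.56 to 22.6, and each diet held both low and high animals. The log2 fold change was 0.15 (SE 0.40, 95% interval -0.72 to 1.01), and it was -0.31 without HFr 5 and 0.41 without chow 3. The within-diet coefficient of variation of LAMP2, 57.6%, was at the 94.6th percentile of all tested transcripts.

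LAMP2 and GABARAP were lower in libraries with a larger mitochondrial share, at an unadjusted p only. This relation was examined after the values were seen, on nuclear transcripts alone, with edgeR and with diet in the fit. LAMP2 had a log2 change of -0.46 (SE 0.11) for each 10 percentage points of mitochondrial counts, with an unadjusted p of 0.00116 and an adjusted p of 0.105, and GABARAP a log2 change of -0.19 (SE 0.065), with an adjusted p of 0.243. These 2 members had an unadjusted p under 0.05, 7.14% of the 28, against 12.6% of the 8324 nuclear transcripts tested, and no member passed after adjustment, against 0.505% of those transcripts. The difference between this share of members and the background was not tested. SQSTM1 had a log2 change of -0.18 (SE 0.084, adjusted p = 0.402 in edgeR). Leaving out each animal in turn gave -0.53 to -0.37 for LAMP2 and -0.25 to -0.16 for GABARAP.

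The libraries fell into 4 with a mitochondrial share of 34.7% to 44.0% (HFr 2 and 5, chow 2 and 3) and 6 with 57.1% to 73.6% (3 of each diet). LAMP2 measured 10.7 to 22.6 normalized counts in the 4 and 4.56 to 9.22 in the 6, and GABARAP measured 44.6 to 56.3 in the 4 and 30.5 to 37.8 in the 6. ATG2B was separated the other way, with 28.3 to 34.2 in the 4 and 34.9 to 40.8 in the 6. Its log2 change in the fit was 0.082 (SE 0.059) for each 10 percentage points, with an adjusted p of 0.613 in edgeR. The split uses the same 10 values as the fit above and is a description of them, not a further result. These 3 of the 28 members did not overlap between the 4 and the 6 libraries, beside 3.38% of nuclear transcripts, and nothing is read from that count. The summed hepatocyte markers were also separated, at 55850 to 71510 normalized counts in the 4 and 36440 to 53670 in the 6. The part of tissue composition, RNA quality or depth in these values was not tested.

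**Figure D4:**
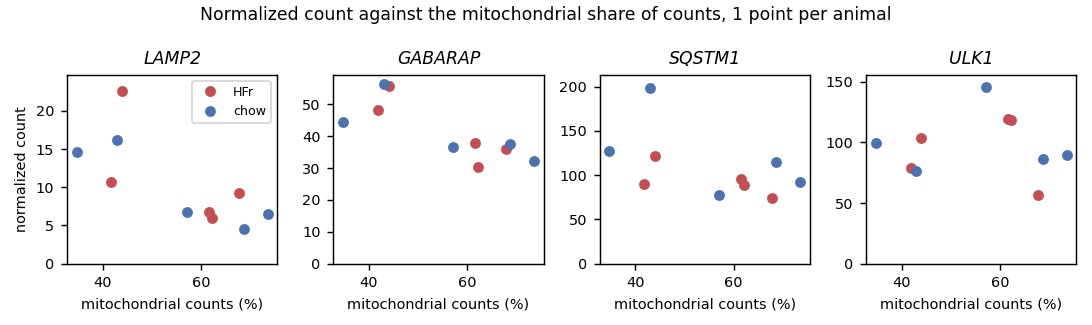
Normalized count (y axis, from 0) of LAMP2, GABARAP, SQSTM1 and ULK1 against the percent of counts on mitochondrial transcripts (x axis), 1 point per animal, coloured by diet. LAMP2 and GABARAP are higher in the 4 libraries under 50% mitochondrial counts, 2 of each diet, than in the 6 above.

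Genes around the members were taken from 7 lists, also written with earlier results of these data known. Signalling through MTOR and AMP-activated kinase, which senses nutrients and acts on ULK1 and TFEB, had 19 of 30 genes tested. Of these, 9 were higher and 10 lower on HFr, with none at an unadjusted p under 0.05. Neither catalytic subunit of AMP-activated kinase passed the filter on low counts. The other genes of autophagosome formation had 13 of 18 tested, with 7 higher, 6 lower and none under 0.05. The median log2 fold changes of these lists were -0.00057 and 0.0080, close to those of the members and of all transcripts.

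Of the other cargo receptors, 16 of 20 were tested, 4 were higher and 12 lower on HFr, and the median log2 fold change was -0.16. Over all tested transcripts, 49.8% were higher on HFr and 4.29% had an unadjusted p under 0.05 in edgeR. Whether this list differs from them was not tested. CCPG1, a receptor for the autophagy of endoplasmic reticulum, was the 1 gene of this list with an unadjusted p under 0.05. It measured 5.62, 7.58, 8.02, 5.74 and 4.72 normalized counts in HFr animals 1 to 5 and 7.72, 8.48, 18.0, 12.6 and 9.59 in chow animals 1 to 5. Only HFr 3 reached into the chow range, and the log2 fold change was -0.85 (SE 0.28, adjusted p = 0.9996 in edgeR).

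In each list of genes that act at the lysosome, more tested genes were higher than lower on HFr, and none passed adjustment. Of all tested transcripts, 49.8% were higher on HFr and 4.29% had an unadjusted p under 0.05 in edgeR. Of the lysosomal hydrolases and their activators, 31 of 36 were tested and 23 were higher, with a median log2 fold change of 0.23. SGSH, which degrades heparan sulfate, was the 1 gene of the list with an unadjusted p under 0.05 (log2 fold change 0.59, SE 0.25). Of the fusion genes, 15 of 20 were tested and 11 were higher, with a median of 0.19. SNAP29, a SNARE protein (0.56, SE 0.25), and RILP, an effector of RAB7 (0.79, SE 0.33), had an unadjusted p under 0.05. The proton pump had 13 of 16 genes tested and 8 higher, with ATP6V0B (0.39, SE 0.17) at an unadjusted p under 0.05. The other lysosomal membrane proteins had 14 of 20 tested and 8 higher, with none under 0.05. Whether these lists differ from other genes was not tested.

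Macrophages are rich in lysosomes, and their markers are given beside these lists. Of 8 tested macrophage markers 7 were higher on HFr, with a median log2 fold change of 0.18 and none at an unadjusted p under 0.05. The summed level of the 10 macrophage markers with an entry was 59.0 to 218 normalized counts on HFr and 63.1 to 239 on chow, so the diets overlapped almost completely. The part of macrophages in the lysosomal values was not tested.

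**Figure D5:**
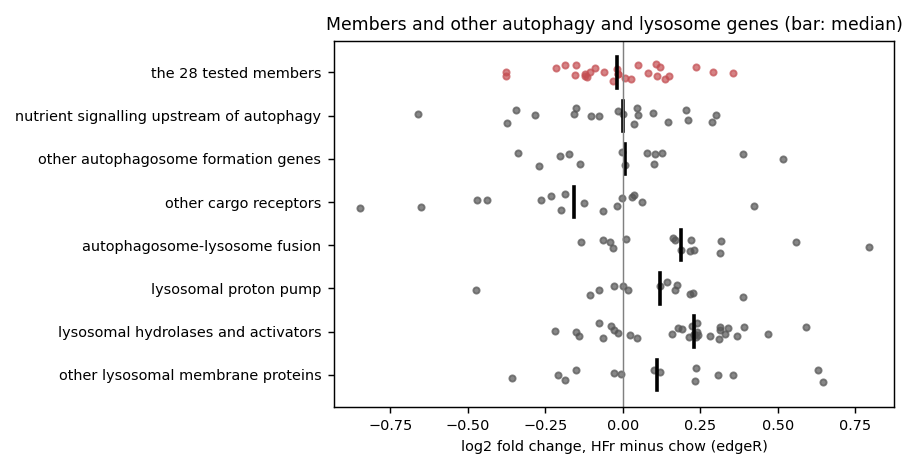
Log2 fold change, HFr minus chow (x axis), of each tested gene among the 28 members and in 7 lists of other autophagy and lysosome genes; black bars are medians and the vertical scatter only separates points. Medians lie at -0.02 for the members, -0.16 for the other cargo receptors, 0.19 for fusion genes and 0.23 for hydrolases.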

How the data were processed

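RNA-Seq libraries of 10 liver biopsies (5 HFr, 5 chow) were analysed. To obtain estimated counts, the authors used Partek Flow, which assigned paired-end reads aligned to ChlSab1.1 to Ensembl transcripts by expectation-maximization, without normalization; per the labels' processing notes CASAVA 1.8 and STAR 2.5.3a were also used. The deposited signal values are the same counts scaled by TMM, constant to within 0.000855% in each animal. Whole numbers made up 96.23% of the estimated counts, and the rest were rounded. Gene positions (ChlSab1.1) follow the deposited count table and were taken as 1-based, a convention that the sources do not state. The last base printed is the one before the stop that the table lists.

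Counts were filtered with filterByExpr (minimum count 10, minimum total 15) and tested with edgeR 4.0.16 in R 4.3.3 (quasi-likelihood test, TMM factors 0.6085 to 1.483 on whole-library sizes, diet as the only term), with Benjamini-Hochberg adjustment over all 7948 transcripts. The standard error is the log2 fold change divided by the square root of F. The test was checked on simulated data with 1 dispersion for all transcripts and with changes larger than those of the members. Changes as small as the members' were not covered. Single values were compared by two-sided exact permutation tests over 252 assignments, whose smallest p is 0.00794. With the TMM-scaled library sizes, 1 read equals 0.182 to 0.502 normalized counts. Nothing states that same-numbered animals of the diets are related. Each library is a separate animal, and no 2 correlated above 0.953.

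Values per animal are given for the 5 members with the smallest p, for ATG2A, ATG3, ATG7 and MITF, for the ATG8 family, TFEB, TFE3, LAMP2, SQSTM1 and ULK1. Other members are given by their log2 fold change, members with under 10 counts in most animals by raw counts, and other genes only at an unadjusted p under 0.05. COL1A1 was named outside this rule, after its values were seen. The members and lists were chosen with earlier results of these data known. Alternatives were DESeq2 1.42.0, other scalings and filters, counts summed by gene symbol and the mitochondrial percent as a covariate. Others were a block on the replicate number, each animal left out, and an equal-variance t-test like the study's. That t-test used log2 of the deposited value plus 1, a scale chosen here. The equal-variance test was run only on transcripts that passed the filter on low counts.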

Additional observations from a re-analysis of the deposited data

Results flagged for a closer look

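For 7 of the 56 groups of 5 animals (28 tested members, 2 diets), 1 animal stood apart from the other 4 of its diet, with a gap above 0.71 of the group's range. For 5 independent, normally distributed values, chance alone sets apart about 5% of such groups. That rate was not computed for these counts, and the 56 groups share the same animals, so no excess is read from it. On chow, ATG101 measured 11.0 normalized counts in chow 5 against 17.5 to 19.6 in the others, and PIK3C3 measured 5.83 in chow 3 against 1.83 to 2.51. ATG4D measured 9.04 in chow 4 against 4.55 to 5.45, and GABARAPL2 measured 45.2 in chow 5 against 31.1 to 34.7. On HFr, ATG4B measured 34.9 in HFr 4 against 19.2 to 23.6, TFE3 measured 12.8 in HFr 3 against 17.7 to 18.9, and LAMP2 measured 22.6 in HFr 5 against 5.96 to 10.7. Chow 5 and no other animal was set apart for 2 members.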

How the results depend on the processing

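No member had an adjusted p under 0.05 under any of the 19 alternatives. For 1 of them, counts summed by gene symbol, the members' counts could not change, since each member has 1 transcript. Of the 19, only the equal-variance test gave a member an unadjusted p under 0.05: 1, ATG2A (log2 fold change 0.31). That test was run on the 28 tested members only, so ATG7 and the other members below the filter could not be called by it. With each animal left out, 10 to 14 members were higher on HFr, and the smallest unadjusted member p in edgeR was 0.0505, for SQSTM1. Over all transcripts, 124 had an unadjusted p under 0.05 when only library size was used for scaling and 756 of 16066 without a filter on low counts, against 341 of 7948, and DESeq2 gave 2 with an adjusted p under 0.05 and library size 1, against 0 in edgeR.

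Log2 fold changes near 0 changed sign under some settings. With the equal-variance test they were 0.0087 for ATG13, 0.12 for PIK3C3, 0.0013 for ATG2B, 0.044 for ATG16L1 and 0.014 for TFE3. With library size only they were -0.017 for ATG101 and 0.073 for TFE3, with the mitochondrial percent as a covariate 0.0090 for PIK3C3 and 0.00048 for TFE3, and without a filter on low counts 0.0016 for PIK3C3. The replicate block gave 0.16 for PIK3C3, changed no other sign, and moved the count of transcripts with an unadjusted p under 0.05 from 341 to 271. Same-numbered animals did not deviate together (correlations -0.28 to 0.096, and none of the 5 HFr animals correlated best with its own number), so the numbers were not taken as pairs.

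Leaving out each animal in turn changed signs within these log2 ranges: ULK1 -0.16 to 0.12, ATG13 -0.35 to 0.31, ATG101 -0.087 to 0.11, BECN1 -0.015 to 0.29, PIK3C3 -0.20 to 0.47, ATG2B -0.091 to 0.042, WIPI1 -0.26 to 0.058, ATG4B -0.062 to 0.20, ATG16L1 -0.13 to 0.033, GABARAP -0.12 to 0.14, NBR1 -0.033 to 0.38, TFEB -0.10 to 0.20, TFE3 -0.14 to 0.071 and LAMP2 -0.31 to 0.41. The HFr minus chow difference ranged from -111300 to 487700 for total counts, -133700 to 314400 for nuclear counts and -5.10 to 4.61 for mitochondrial percent. The cause of these changes was not tested. The filter on low counts removed 7 members, and without it none of them had an unadjusted p under 0.05 in edgeR, with standard errors of 0.47 to 0.80.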
